A study of Mus musculus with 4 samples.

Results

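Itga6, the other laminin-binding integrin subunits, the integrin partner Cd151 and 5 laminin chains were read in tibial marrow RNA of obese mice with and without exercise. The 10 genes are Itga6, Itga3, Itga7, Itgb4, Cd151, Lama4, Lama5, Lamb1, Lamb2 and Lamc1, out of 55401 genes in the tables, and they have 71 of the 142604 annotated transcripts. They were gathered around Itga6, which was selected on its fall in this same contrast, so the values of Itga6 are given as a description with no test. The 9 other genes were added as its relatives, partners and ligands.

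All mice were male C57/B6 on a high-fat diet (HFD) that began at 8 weeks of age. The Ob mice had the diet alone, and the Ob + Exe mice stayed on it and also ran on a treadmill at moderate intensity for 12 weeks. Each group has 2 libraries, so every SD below is of 2 values. Nothing in the labels says whether a library is 1 mouse or a pool. No lean group was analysed here. Values are given for the 2 Ob libraries (without exercise) and then for the 2 Ob + Exe libraries (with exercise).

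An integrin is a pair of an alpha and a beta chain that holds a cell to the matrix around it. The alpha chain encoded by Itga6 pairs with the beta chain of Itgb1 or of Itgb4, and both pairs bind laminin. A laminin is a trimer of 1 alpha, 1 beta and 1 gamma chain, and laminins with the chains of Lama4 or Lama5 line the vessels of the bone marrow. Itga6 is known as a laminin receptor of platelets, megakaryocytes and blood stem and progenitor cells, and Cd151 is a tetraspanin that binds the laminin integrins in the membrane.

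The coverage of the transcripts amounted to 53038186 and 50423542 read equivalents in Ob against 44310505 and 46668748 in Ob + Exe. A read equivalent is the mean coverage times the transcript length, divided by the read length of 150 bases. Both Ob libraries were thus deeper than both Ob + Exe libraries. More transcripts had a value above 0 in Ob (65644 and 53352) than in Ob + Exe (41028 and 48904). Genes with at least 1 FPKM (a level scaled to transcript length and library size) numbered 12080 to 12547. The labels also give mesenchymal stem cells as the cell line and fibroblast as the cell type, while the paper describes marrow collected by centrifugation. The summed scaled FPKM of 14 stroma and fibroblast markers was 156 to 216 per library, that of 10 erythroid markers was 41800 to 66000, and that of 12 neutrophil markers was 27400 to 63900. The summed markers of blood-forming cells thus stood far above those of the labelled cell type. Hba-a1 and Hbb-bs made up most of the erythroid sum, and S100a8 and S100a9 most of the neutrophil sum. Single markers could stand the other way, with the erythroid Epor at 53.3 to 81.6 and the stroma marker Cxcl12 at 88.4 to 142.

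Itga6 lies on the plus strand of chromosome 2 (GRCm38, chr2:71745616-71858416) and has 9 annotated transcripts in the tables. The full-length coding transcripts are ENSMUST00000028522 and ENSMUST00000112101, with 26 exons each and lengths of 4310 and 4156 bases. They differ in the end of the protein that reaches into the cell. The first includes exon 25 (chr2:71853534-71853663, 130 bases), which ends the reading frame and gives the tail known as A, and it is called the A-tail transcript here. The other, the B-tail transcript, skips this exon and reads on into the last exon for 159 coding bases. ENSMUST00000126787, the 3-exon transcript, has 2721 bases. It is annotated as a processed transcript with no coding sequence, and it covers only the 3′ end of the gene (chr2:71849029-71858416).

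Shown are 3 sequences from the regions where these transcripts differ, 5′ to 3′ on the plus strand, from the GENCODE vM21 transcripts on GRCm38. The first is the coding part of exon 25 in the A-tail transcript (chr2:71853534-71853641), with the stop codon in capitals. The second is the start of the last exon of the B-tail transcript (chr2:71855854-71855883), where the reading frame goes on in place of exon 25. All 3 transcripts hold these bases, which also open the last exon of the other transcripts. They are annotated as coding in the B-tail transcript alone, so they do not tell the transcripts apart by themselves. The third is the first exon of the 3-exon transcript (chr2:71849029-71849060), which is in no exon of the full-length transcripts.
A-tail transcript, exon 25: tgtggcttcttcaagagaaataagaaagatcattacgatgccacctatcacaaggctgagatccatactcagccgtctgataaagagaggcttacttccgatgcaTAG
B-tail transcript, last exon: tgtggattctttaagcgctctaggtacgat
3-exon transcript, first exon: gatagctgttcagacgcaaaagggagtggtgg

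The 3-exon transcript shares 1044 of its bases with the exons of the A-tail or B-tail transcript. The other 1677 bases (61.6%) are not shared, and 1645 of them lie beyond the end of the B-tail transcript. StringTie, which made the tables, divides reads over shared exons among transcripts by a model, and the tables give 1 mean coverage per transcript. Where along a transcript the reads lay is not known from them.

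**Figure D1:**
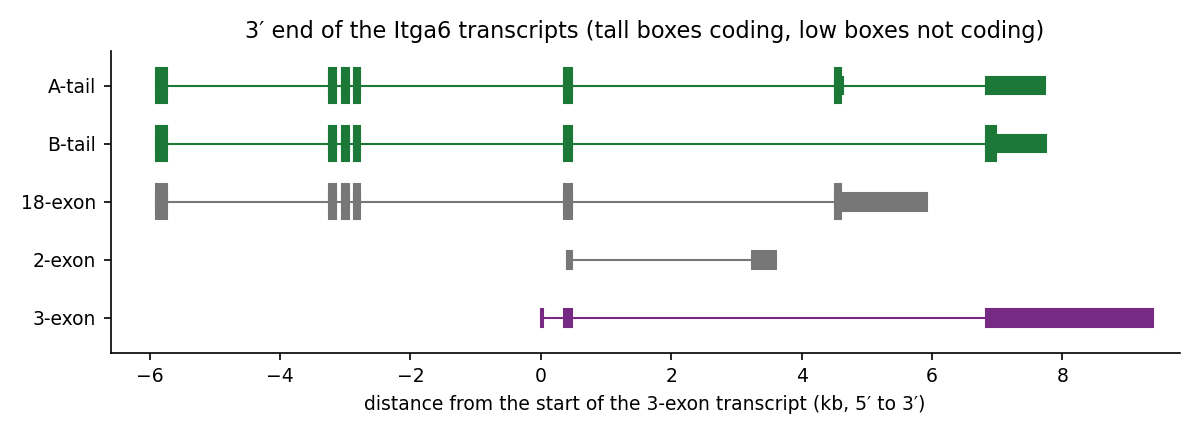
Exons of 5 Itga6 transcripts at the 3′ end of the gene, by distance in kb from the start of the 3-exon transcript, with coding parts as tall boxes, other exon parts as low boxes and introns as lines. The 3-exon transcript has no coding box and its last exon runs 1645 bases past the end of the B-tail transcript.

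The summed FPKM of all Itga6 transcripts, as deposited, was 18.1 and 17.1 without exercise against 2.03 and 2.53 with it. Both Ob + Exe libraries lay far below both Ob libraries. The means were 17.6 ± 0.701 and 2.28 ± 0.353 (SD, n = 2), a ratio of 7.73. These values rest on 3883 and 3369 read equivalents in Ob and on 513 and 619 in Ob + Exe. After scaling between the libraries, the log2 fold change was -2.82 on the log2(FPKM + 0.1) scale. In bulk marrow, fewer cells that carry Itga6 and less Itga6 RNA per cell cannot be told apart.

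Most of this difference was in the short transcript. The 3-exon transcript had an FPKM of 11.3 and 13.0 in Ob and was listed at 0 in both Ob + Exe libraries, with a mean coverage of 112 and 125 reads per base in Ob. It held 62.3% and 75.9% of the Itga6 FPKM of the Ob libraries (69.1% ± 9.58, SD, n = 2). Of the 15.3 FPKM between the group means, 12.1 (79.2%) was the 3-exon transcript, 2.72 (17.8%) was the full-length pair and 0.469 (3.06%) was the other 6 transcripts.

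The full-length pair differed less. The A-tail and B-tail transcripts together had an FPKM of 6.30 and 3.70 without exercise against 2.03 and 2.53 with it. The groups did not overlap, but the lower Ob library was closer to both Ob + Exe libraries than to the other Ob library. The means were 5.0 ± 1.84 and 2.28 ± 0.353 (SD, n = 2), a ratio of 2.20. With every transcript except the 3-exon transcript, the ratio was 2.40. With the 3 transcripts annotated as protein-coding alone, the log2 fold change was -1.06 in place of -2.82.

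**Figure D2:**
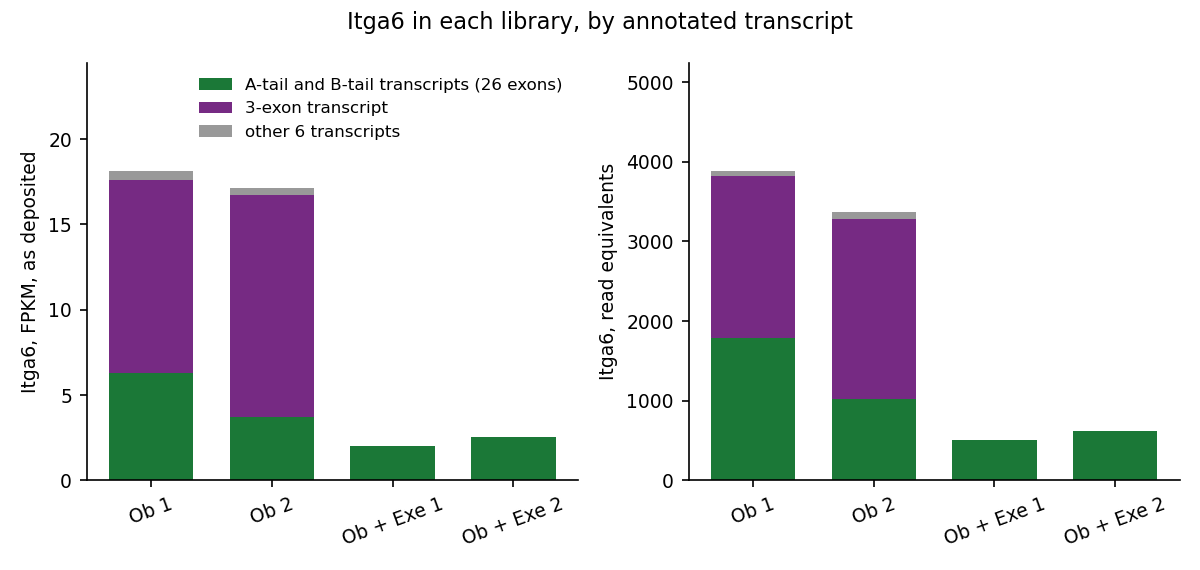
Itga6 in each of the 4 libraries, as deposited FPKM (left) and as read equivalents (right), stacked by transcript. The 3-exon transcript is 11.3 and 13.0 FPKM in Ob and 0 in both Ob + Exe libraries, while the full-length pair is 3.70 to 6.30 in Ob and 2.03 to 2.53 in Ob + Exe.

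The A-tail transcript led the full-length pair in 3 of the 4 libraries. It had an FPKM of 5.58 and 3.18 without exercise against 2.03 and 1.10 with it. The B-tail transcript had an FPKM of 0.719 and 0.518 without exercise against 0 and 1.42 with it. The share of the A-tail transcript in the pair was 88.6% and 86.0% in Ob, while the Ob + Exe libraries stood on either side of these values at 100% and 43.7%. No direction of the tail choice with exercise can be read from these libraries.

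The remaining transcripts were low. ENSMUST00000155249, a coding transcript of 18 exons, had an FPKM of 0.200 and 0.363 in Ob and was listed at 0 in Ob + Exe. ENSMUST00000139760, of 2 exons, had 0.306 and 0.0382 in Ob and was also listed at 0 in Ob + Exe. ENSMUST00000152009, ENSMUST00000155596 and ENSMUST00000238991 stayed under 0.02 in every library, and ENSMUST00000133124 was listed at 0 throughout. In all, 7 and 8 of the 9 transcripts were above 0 in Ob and 1 and 3 in Ob + Exe.

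Listing at 0 in Ob + Exe was more frequent in the whole tables too. Of 4964 transcripts with at least 10 FPKM in both Ob libraries, 46 (0.927%) were at 0 in both Ob + Exe libraries, and in the reverse direction 5 of 4434 (0.113%) were. At 1 FPKM these shares were 2.73% and 0.331%, and at 0.1 FPKM they were 6.80% and 0.639%. All 3 levels were chosen after the transcript values had been seen, and the lowest was added last, to include the weaker transcripts. Of the 10 genes, 1 transcript reached 10 FPKM in both Ob libraries, the 3-exon transcript of Itga6. Itga6 was selected on this contrast, so nothing is read from its zeros or from the counts below that include them. At 1 FPKM the 3-exon transcript was the 1 at 0 in both Ob + Exe libraries among 3 transcripts. At 0.1 FPKM 4 of 17 were at 0 in both Ob + Exe libraries. These were the 3-exon and the 18-exon transcript of Itga6, and 1 transcript each of Lamc1 and Cd151. In the reverse direction there were 0 of 7 at 0.1 FPKM and 0 of 2 at 1 FPKM.

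The surroundings of Itga6 were also read. Gm13739, Gm13662 and Gm13663, whose spans overlap that of Itga6, were listed at 0 in all libraries. Pdk1, a kinase of the mitochondrial pyruvate dehydrogenase complex, is the next gene on the same strand and starts 14808 bases past the end of Itga6. Its scaled FPKM was 7.97 and 7.32 without exercise against 8.11 and 6.50 with it. The groups overlapped, with a log2 fold change of -0.07 ± 0.263 (SE).

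Values from here on are FPKM summed per gene and scaled between the libraries, unless a transcript is named. For the fit over all genes, 18596 genes that averaged 0.1 FPKM or more were tested with limma, and a gene was called at an unadjusted p under 0.05 with a log2 fold change beyond 1. Of these, 510 (2.74%) were called lower and 186 (1.0%) higher in Ob + Exe. In limma, 0 genes had a Benjamini-Hochberg adjusted p under 0.05, the smallest was 0.738, and 940 genes had an unadjusted p under 0.05. Of the 9 genes other than Itga6, 6 could be tested and 0 were called. Ob + Exe lay wholly below Ob for 3 of the 6 (18.3% of all genes) and wholly above it for 1 of the 6 (14.3% of all genes).

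**Figure D3:**
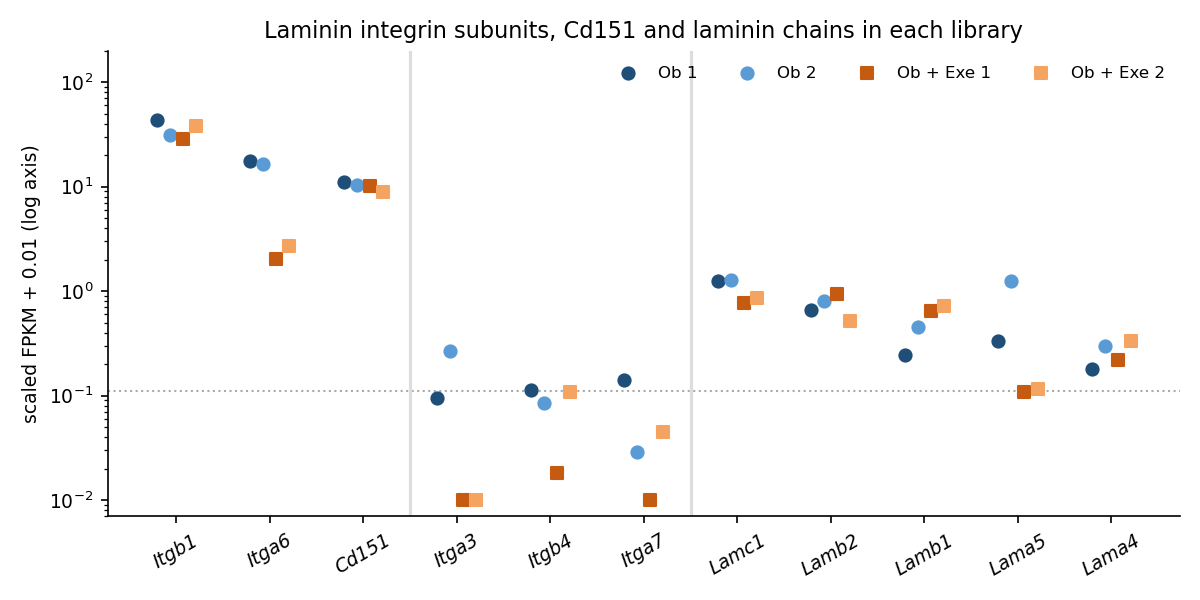
Scaled FPKM plus 0.01 on a log axis for Itgb1 and the 10 genes, 1 point per library (circles Ob, squares Ob + Exe), with a dotted line at the minimum mean of 0.1 FPKM. Itga6 is 16.4 and 17.6 without exercise against 2.02 and 2.67 with it, while Itgb1 and Cd151 lie close together in all 4 libraries.

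Of the beta chains that pair with Itga6, Itgb1 was abundant and Itgb4 was nearly absent. Itgb1, which is not one of the 10 genes, had a scaled FPKM of 43.7 and 31.5 without exercise against 28.8 and 37.9 with it. The groups overlapped, and the log2 fold change was -0.16 ± 0.264 (SE, limma, adjusted p = 0.975). Itgb4 (chr11:115974709-116008412, plus strand), the beta chain of the epithelial anchoring plaques called hemidesmosomes, had 0.103 and 0.0743 without exercise against 0.0083 and 0.0988 with it, or 3 to 44 read equivalents. It was under the minimum for the test, and a single coding transcript of 40 exons held all of it in each library. This was ENSMUST00000106461 in the first libraries of both groups and ENSMUST00000169928 in the second. Of 5 hemidesmosome genes, the keratins Krt5 and Krt14 were listed at 0 in all 4 libraries. Col17a1 had 0.0333 in the second Ob library and 0 elsewhere. Plec was well above these, at 6.67 and 5.44 without exercise against 9.77 and 5.7 with it. Dst had 0.261 and 0.357 without exercise against 0.404 and 0.125 with it.

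Itga3 and Itga7, which encode the other 2 alpha chains of this integrin branch, were also under the minimum. Itga3 (chr11:95044474-95076801, minus strand) had a scaled FPKM of 0.0850 and 0.256 in Ob, all of it from 1 coding transcript, and was listed at 0 in both Ob + Exe libraries. This rests on 28 and 83 read equivalents. Itga7 (chr10:128933818-128958282, plus strand), best known in muscle, had 0.132 and 0.0186 without exercise against 0 and 0.0351 with it, at most 36 read equivalents. Mettl7b and Gm25494, which overlap Itga7, were listed at 0 in all libraries. A transcript of Itga7 with a retained intron held 17.3% of the gene in the first Ob library and was listed at 0 elsewhere. Itga6 was thus the only one of the 3 alpha chains above 0.3 FPKM in any library.

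Cd151 (chr7:141467392-141471473, plus strand) was not called, and its levels were close. Its scaled FPKM was 11.2 and 10.3 without exercise against 10.2 and 8.79 with it. The Ob + Exe values lay below the Ob values by a small margin, with a log2 fold change of -0.18 ± 0.238 (SE, limma, adjusted p = 0.97). In the Ob libraries Itga6 (17.0 ± 0.811, SD, n = 2) stood above Cd151 (10.8 ± 0.617), and in the Ob + Exe libraries Cd151 (9.48 ± 0.98) stood above Itga6 (2.34 ± 0.465). With coding transcripts alone the order in Ob turned, since the deposited FPKM of Cd151 was 10.4 and 8.56 there and that of Itga6 was 6.50 and 4.06, and Cd151 then stood above Itga6 in all 4 libraries.

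The division of Cd151 among its transcripts moved between libraries of the same group. ENSMUST00000106000 had a deposited FPKM of 0.696 and 5.97 without exercise against 5.59 and 7.88 with it. ENSMUST00000177840 had 9.34 and 2.44 without exercise against 3.68 and 0 with it. Both have 8 exons and code for protein, and their sum differed less between libraries than either did alone. ENSMUST00000210058, a transcript with a retained intron, had 0.142 and 0.354 in Ob and was listed at 0 in Ob + Exe. A further transcript of Cd151 with a retained intron, of 2 exons and 646 bases, had 0.209 and 1.33 without exercise against 0.82 and 0.151 with it. Gm10575 overlaps Cd151 on the opposite strand, with a deposited FPKM of 0.295 and 0.469 in Ob and 0 in both Ob + Exe libraries. The overlap runs from the start of Cd151 to chr7:141467771, and reads within it cannot be assigned to either gene without strand.

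The laminin chains were low. For the 5 chains gathered here, the highest value in any library was 1.26 FPKM, for Lamc1. Lama4 and Lama5 encode the alpha chains of vessel laminins, Lamb1 and Lamb2 the beta chains, and Lamc1 the gamma chain common to most laminins. By mean scaled FPKM the order in Ob was Lamc1 (1.24 ± 0.0262), Lama5 (0.783 ± 0.65), Lamb2 (0.720 ± 0.0984), Lamb1 (0.337 ± 0.147) and Lama4 (0.227 ± 0.0832). In Ob + Exe it was Lamc1 (0.806 ± 0.0705), Lamb2 (0.721 ± 0.301), Lamb1 (0.677 ± 0.0523), Lama4 (0.267 ± 0.0784) and Lama5 (0.102 ± 0.00462), each as SD with n = 2. In Ob the values of Lama5 spanned those of Lamb2, and those of Lamb1 and Lama4 overlapped, while in Ob + Exe the values of Lamb2 spanned those of Lamc1 and Lamb1.

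Lama5 (chr2:180176373-180225859, minus strand) had the largest log2 fold change of the 6 tested genes. Its scaled FPKM was 0.323 and 1.24 without exercise against 0.0991 and 0.106 with it, from 210 and 318 read equivalents against 67 and 66. Both Ob + Exe libraries were lower, but the Ob libraries were far apart. The log2 fold change was -1.90 ± 0.81 (SE, limma, unadjusted p = 0.0591, adjusted p = 0.959), so Lama5 was not called. It was called at -2.73 without the first Ob library, at -1.74 with limma voom on read equivalents and at -1.90 with no intensity trend. It was not called without the second Ob library, at -1.07, or with a pseudocount of 1, at -0.64. The full-length Lama5 transcript ENSMUST00000015791, of 79 exons, had a deposited FPKM of 0.275 and 0.376 without exercise against 0.0996 and 0.0998 with it. ENSMUST00000130796, a processed transcript of 4 exons, had 0.0579 and 0.919 in Ob and was listed at 0 in Ob + Exe, and it held 71.0% of the gene in the second Ob library. Mir7005, which lies inside Lama5 on the same strand, had a deposited FPKM of 0.402 and 0.305 in Ob and was listed at 0 in Ob + Exe. With coding transcripts alone the log2 fold change of Lama5 was -1.02 ± 0.596 (SE, limma, adjusted p = 0.946).

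Lamc1 (chr1:153218922-153332786, minus strand) changed its order between the groups with the transcript that was read. The gene sum was 1.23 and 1.26 without exercise against 0.756 and 0.855 with it, lower in both Ob + Exe libraries, with a log2 fold change of -0.57 ± 0.453 (SE, limma, adjusted p = 0.959). The full-length ENSMUST00000027752, of 28 exons, had a deposited FPKM of 0.672 and 0.441 without exercise against 0.760 and 0.808 with it, higher in both. ENSMUST00000161744, a coding fragment of 3 exons and 1447 bases, had 0.590 and 0.874 in Ob and was listed at 0 in Ob + Exe. Of the genes that overlap Lamc1, Gm8818 on the opposite strand was listed at 0 in 3 libraries and had 0.214 in the second Ob + Exe library, and Gm38009 on the same strand had 0.0361 in the first Ob library and 0 in the other 3. Read equivalents of the gene, in which a short transcript weighs less, were 397 and 297 without exercise against 340 and 357 with it, and limma voom on them gave a log2 fold change of 0.24.

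Lamb1 (chr12:31265234-31329644, plus strand) was the 1 tested gene with both Ob + Exe libraries higher. Its scaled FPKM was 0.233 and 0.441 without exercise against 0.640 and 0.714 with it, a log2 fold change of 0.87 ± 0.603 (SE, limma, adjusted p = 0.959). In the first Ob + Exe library 64.7% of it was ENSMUST00000169065, a transcript with a retained intron that was listed at 0 in the other 3 libraries. The coding ENSMUST00000002979 had a deposited FPKM of 0.238 and 0.459 without exercise against 0.227 and 0.671 with it, where the groups overlapped.

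Lamb2 (chr9:108479736-108490530, plus strand) and Lama4 (chr10:38965515-39110188, plus strand) overlapped between the groups. Lamb2 had a scaled FPKM of 0.651 and 0.790 without exercise against 0.934 and 0.508 with it, a log2 fold change of -0.04 ± 0.556 (SE, limma, adjusted p = 0.994). Its coding transcript ENSMUST00000065014 had a deposited FPKM between 0.409 and 0.561 in all libraries, and ENSMUST00000194421, with a retained intron, ranged from 0 to 0.413. Lama4 had 0.168 and 0.286 without exercise against 0.211 and 0.322 with it, a log2 fold change of 0.17 ± 0.704 (SE, limma, adjusted p = 0.986), nearly all of it from 1 coding transcript. Their standard errors leave room for changes in either direction.

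**Figure D4:**
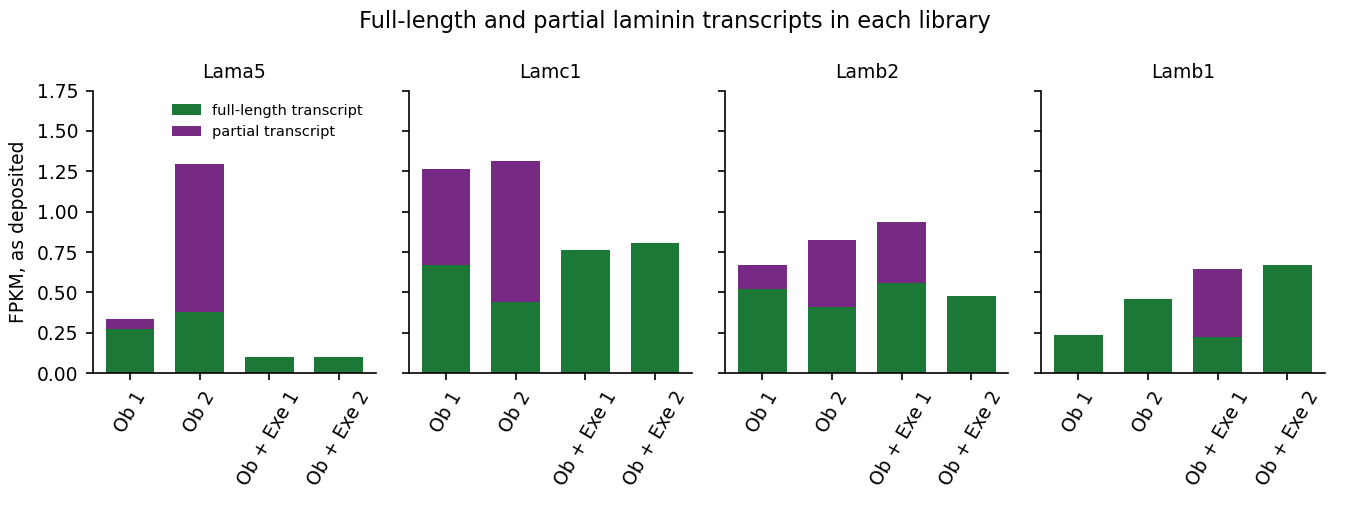
Deposited FPKM of the full-length coding transcript (green) and of a partial transcript (purple) of 4 laminin chains in each library. The partial transcripts of Lama5 and Lamc1 are above 0 in Ob and 0 in Ob + Exe, that of Lamb2 is 0 in 1 library, and that of Lamb1 is above 0 in 1 library.

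Over all 10 genes, 31 and 30 of the 71 transcripts (43.7% and 42.3%) were above 0 without exercise. With exercise, 14 and 17 were (19.7% and 23.9%). Among the 33 coding transcripts the numbers were 15 and 15 without exercise against 10 and 11 with it. Among the 38 others they were 16 and 15 without exercise against 4 and 6 with it. All of these counts include Itga6, which was selected on its fall in this contrast. It gave 7 and 8 of the transcripts above 0 in Ob and 1 and 3 in Ob + Exe. Nothing is therefore read from the totals about the members. Over all annotated transcripts the shares above 0 were 46.0% and 37.4% without exercise against 28.8% and 34.3% with it. The part of this difference between the groups in the zeros of the partial transcripts of Itga6, Lama5 and Lamc1 was not tested.

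The wider pathway was read from 8 lists of 85 genes. Without Itga6, which fixed the choice of genes, 65 of the other 84 were tested. Of these 1, Itga2, was called lower and 0 were called higher, beside 2.74% and 1.0% of all genes tested. The median log2 fold change was -0.04, beside -0.02 over all genes. Both Ob + Exe libraries were lower for 9 of the 65 and higher for 5, beside 18.3% and 14.3% of all genes. Itga2, the alpha chain of the platelet collagen receptor, had a scaled FPKM of 1.39 and 1.39 without exercise against 0.624 and 0.454 with it, a log2 fold change of -1.23 ± 0.485 (SE, limma, unadjusted p = 0.0455, adjusted p = 0.959). It was the 1 gene called of 18 tested among 21 other integrin subunits. The call was lost with a pseudocount of 1, with quantile normalization, with no filter on low values, with either replicate block, and without the first Ob, the second Ob or the second Ob + Exe library. Of 11 laminin chains 6 were tested, with 3 log2 fold changes below 0, 3 above 0 and a median of 0.06. Besides the 5 described, this was Lamb3, the beta chain of an epithelial laminin, with 1.38 and 0.556 without exercise against 1.33 and 0.834 with it.

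Among the genes other than Itga6, the remaining lists held 0 called genes. Of the 4 laminin integrin subunits besides Itga6 only Itgb1 reached the minimum for the test, and of the 5 hemidesmosome genes 2 did. Of 4 laminin receptors that are not integrins, all were tested, with a median log2 fold change of 0.02. Of 13 basement membrane partners of laminin 9 were tested, 5 below and 4 above 0. Of 9 tetraspanins all were tested, 5 below and 4 above 0. Of 17 integrin adaptors, which tie integrins to the actin skeleton, 16 were tested, 8 below and 8 above 0.

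**Figure D5:**
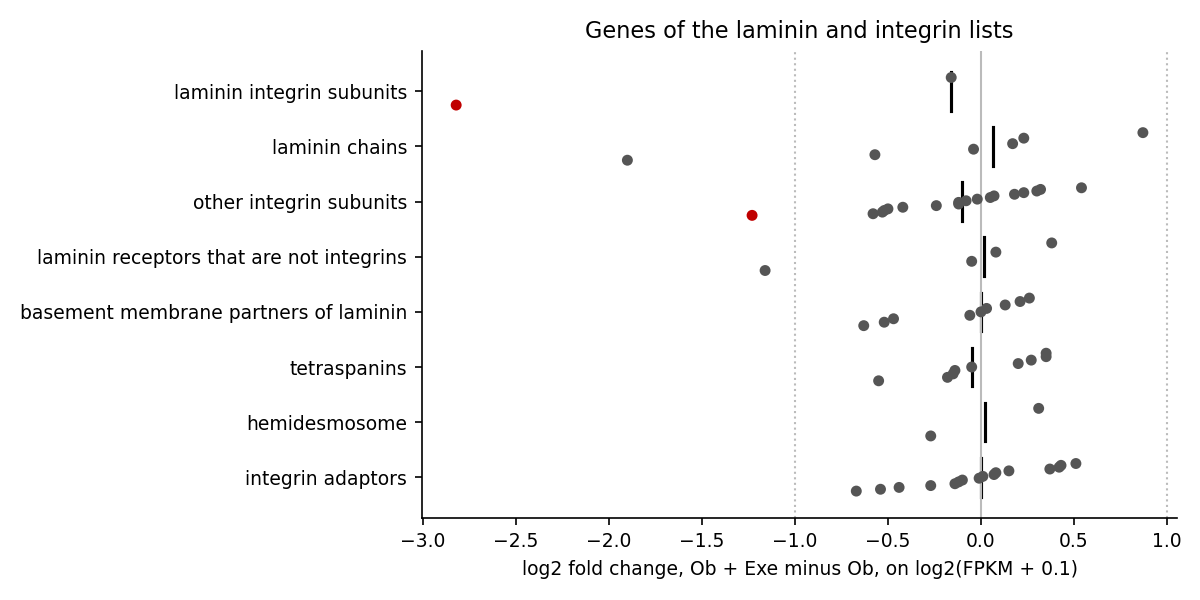
Log2 fold change (Ob + Exe minus Ob, on log2(FPKM + 0.1)) of the 66 genes over the minimum in 8 laminin and integrin lists, 1 point per gene, with the called gene and Itga6, which is shown without a test, in red, the list median without Itga6 as a bar and dotted lines at -1 and 1. Itga6 at -2.82 and Itga2 at -1.23 are the red points, and the medians of the lists with more than 2 tested genes lie between -0.10 and 0.06.

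Markers of cells that carry Itga6 moved with it in part. The summed scaled FPKM of 15 megakaryocyte and platelet markers was 581 and 440 without exercise against 436 and 175 with it. All 15 had a log2 fold change below 0, with a median of -0.98, beside 51.7% of all genes tested below 0. Of the 15, 7 were called lower (Gp1ba, Gp1bb, Gp5, Treml1, Clec1b, Tubb1 and Nrgn), beside 2.74% of all genes, and 10 were lower in both Ob + Exe libraries, beside 18.3%. None was at 0 in any library. This sum was lowest in the second Ob + Exe library, whereas Itga6 was lowest in the first. The sum of 14 endothelial markers was 47.8 and 52.2 without exercise against 49.4 and 26.3 with it, with 1, Sox17, at 0 in the first Ob + Exe library. All 14 had a log2 fold change below 0, with a median of -0.51, and 8 had both Ob + Exe values under both Ob values, with 2 called lower. Vwf, at -0.78, is in both the endothelial and the megakaryocyte list. The sum of 10 stem and progenitor markers was 64 and 52.6 without exercise against 68.7 and 52.7 with it. Of these 10 markers 9 were tested, 6 were below 0, 2 were lower and 3 higher in both Ob + Exe libraries, and 1 was called lower. The sum of 10 B lineage markers was 225 and 237 without exercise against 183 and 144 with it, with 9 below 0, 7 lower in both Ob + Exe libraries and 2 called lower. Of the 14 stroma markers 6 were below and 8 above 0, and 1 was called lower, Col1a1. Of the 10 erythroid markers 8 were below and 2 above 0, with a median of -0.17. The neutrophil markers went the other way, with 11 of 12 above 0 and a median of 0.32, though 1 was higher in both Ob + Exe libraries. Of the erythroid and neutrophil markers 0 were called. The part of these cell types in the Itga6 values was not tested.

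The genes with a profile most like that of Itga6 were sought among 12409 genes that averaged 1 FPKM or more, by the Euclidean distance of the centred log2 values over the 4 libraries. They were 1810044D09Rik (distance 0.73), Slc24a5 (0.765), Gm11914 (0.868), Rab2b (0.881) and Rpl7a-ps5 (0.946). Rab2b, a small GTPase of membrane traffic, had a scaled FPKM of 3.05 and 3.63 without exercise against 0.657 and 0.912 with it. With 4 libraries this likeness is mostly that of the difference between the groups.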

How the data were processed

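RNA-seq was performed on 4 bone marrow libraries, 2 per group, grouped by their labels. The authors enriched poly-A RNA with a kit that is not described as stranded, used fastp and an rRNA filter on the reads, HISAT2 for alignment to GRCm38, SAMtools for filtering and StringTie with GENCODE vM25 for quantification. For each transcript the authors deposited the FPKM and the mean read coverage, a signal that is not scaled for depth. Their DESeq2 test needs read counts and was not repeated on these values.

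Transcript FPKM were summed per gene. Genes that averaged 0.1 FPKM or more were scaled with median-of-ratios factors (0.945 to 1.04), log2(FPKM + 0.1) was taken, and the groups were compared with limma 3.58.1 in R 4.3.3 (intensity trend, Benjamini-Hochberg adjustment). The thresholds for calling genes were those of the study's Methods. This scale understates changes of low genes. The limma step was tested on simulated data with known changes. Transcript types, exons and sequences came from GENCODE vM21, in which 141374 of the 142604 transcripts were found, so vM25 changes to a transcript are not covered. Tables and figures were made with Python 3.11.15, pandas 2.3.3 and matplotlib 3.10.9.

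The genes, lists and tests were chosen with earlier results of these data known, and the lists come from general knowledge. Named are the 10 genes, all Itga6 transcripts, the leading transcripts of the others and those above 10% of their gene, Itgb1, genes that overlap Itga6, called genes of the lists, and the 5 genes with the profile nearest to Itga6. Pdk1, Lamb3, a Cd151 transcript of 3 exons, genes that overlap the other 9, the hemidesmosome genes and all single markers were named after their values were seen. Alternatives were other minimum values, pseudocounts and scalings, limma voom on read equivalents, no trend, a replicate block and leaving out each library. The p-values cover the spread between 2 libraries per group, whose separate origin is not given in the labels. Protein sequences were not used here.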

Additional observations from a re-analysis of the deposited data

How the results depend on the processing

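The Itga6 log2 fold change of -2.82 was -2.43 with a pseudocount of 1, -2.47 with limma voom on read equivalents and -1.06 with protein-coding transcripts only, an alternative chosen after seeing the data, and ranged from -3.03 to -2.63 when each library was left out in turn. The share of the 3-exon Itga6 transcript in Ob was 59.9% by read equivalents and 62.3% to 75.9% by library. The 696 called genes became 267 at a minimum mean FPKM of 1, 222 with a pseudocount of 1, 455 with voom, 1060 without the trend, 428 with protein-coding transcripts only (13 with a limma adjusted p under 0.05) and 599 to 1851 with a library left out, where a lone sample was assumed to vary like the others. The 0 called of the 6 tested genes became 1 with voom and without the trend (Lama5). With no filter all 9 genes other than Itga6 were tested, and 1, Itga3, was called. Its values rest on 28 and 83 read equivalents in Ob and 0 in Ob + Exe. With a library left out, the log2 fold change of Lama5 ranged from -2.73 to -1.07. The 1 called list gene besides Itga6 became 0 at a minimum of 1, with a pseudocount of 1 and with quantile normalization, 2 with voom and without the trend (Lama5 joined Itga2), and 1 to 3 with a library left out (Lama5 without the first Ob library, Bcam without the second, 3 genes with Itga2 without the first Ob + Exe library, and Itga4 and Cd82 without the second). Lamb2 turned to 0.01 with quantile normalization, 0.18 with voom, 0.21 with coding transcripts and -0.44 to 0.33 with a library left out, and Lamc1 turned to 0.24 with voom. With a library left out, Lama4 ranged from -0.10 to 0.42 and Itgb1 from -0.41 to 0.06. Over 7 fold changes (Itgb1 and the 6 tested genes), 91 of 101 recomputed values kept their direction. Where no cause is named by the setting itself, the cause was not tested.

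The replicate numbers are not shown to pair the libraries. The differences of replicate 1 and 2 had a correlation of -0.106 across the 18596 genes. Across the 12409 genes that averaged 1 FPKM or more it was -0.235. With the replicate block, 742 genes were called (18 with a limma adjusted p under 0.05), 0 of the 6 tested genes and 0 list genes besides Itga6, whose fold change stayed at -2.82. The crossed pairing, added after seeing the data, called 803 genes, 11 with an adjusted p under 0.05, and 0 list genes besides Itga6.

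Depth limits Itga3, Itga7 and Itgb4, at 0 to 83 read equivalents per library, and 2 libraries per group limit every value. Both Ob libraries were also deeper than both Ob + Exe libraries. The part of depth in the zeros of Ob + Exe was not tested. Zeros of transcripts are estimates of a model, so no ratio was taken against them.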
